A study of Anopheles stephensi with 4 samples.

Results

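Among 25794 transcripts that the authors assembled from 4 tissues of the malaria mosquito Anopheles stephensi, 264 were given class code x, the code for a transcript whose exons overlap a reference gene on the opposite DNA strand. They were taken by that code from the deposited annotation, and their levels are deposited FPKM, that is fragments relative to transcript length and library size. The tissues came from adult, sugar-fed females kept at 27 °C and were the fat body, the ovary, the midgut and the Malpighian tubules, each measured in 1 RNA-seq library that was run on 2 lanes. Strain, age and the number of pooled females are not given in the sources used here. With 1 library per tissue, every difference below compares libraries, has no replicate check and carries no p-value. The bounds given with the FPKM of a transcript are the authors' own. Those given for a gene are sums of the authors' bounds over its transcripts and are not the authors' interval for the gene. In bulk tissue, fewer cells of a type and less RNA per cell cannot be told apart.

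An antisense transcript is RNA read from the strand opposite to a gene. Such RNAs are known in insects as in other animals, and some lower or raise the level of the gene they overlap, while others have no known effect. Neighbouring genes that point at each other can also overlap at their tails, where the untranslated end of one runs into the other. Whether a short overlap is RNA of the opposite strand or a longer end of the gene itself can be read only from libraries that keep the strand, or from the direction of splice sites. The fat body is the metabolic organ of insects, digestion takes place in the midgut and urine is formed by the Malpighian tubules.

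Whether these libraries kept the strand is not given in the sources used here, and the annotation bears on it. All 2114 transcripts without a strand had 1 exon, and none of the 21317 transcripts with 2 or more exons lacked one. Of the 264 opposite-strand transcripts, 189 had 2 or more exons and 75 had 1 exon, and all 264 carried a strand. What gave the 75 transcripts of 1 exon their strand is not known here. For them, RNA of the opposite strand and RNA of the gene reaching past its annotated end cannot be told apart. The files pair no gene identifier with a name, and 0 of 12340 identifiers matched the RefSeq gene table, so genes are given by identifier and position, no function is named, and the tissue labels could not be checked against markers. Coordinates are 1-based on the scaffolds of the deposited annotation, whose build is not given in the sources used here.

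By estimate the fat body library held 34840907 fragments, the ovary library 34830892, the midgut library 27490192 and the tubule library 36316831. The opposite-strand transcripts took 0.548% of the fragments in the fat body, 0.559% in the ovary, 0.676% in the midgut and 2.53% in the Malpighian tubules. In Malpighian tubules 2 transcripts, ANSTF.5043.1 and ANSTF.4175.1, held 81.3% of the fragments of the class, and without them the class took 0.472%. No member and no transcript of a partner gene had a failed estimate (0 of each).

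The overlap with the annotated model of the gene was short for most of these transcripts. Each was paired with the reference gene on the opposite strand with which it shared the most exonic bases. Of the 264 transcripts, 159 shared between 1 and 4 bases with that gene, and 108 of these shared exactly 4. A further 51 shared 5 to 99 bases, 24 shared 100 bases or more, and 30 shared no exonic base with any annotated gene model of the opposite strand. No overlap of 5 or 6 bases was present, so the group of 1 to 4 bases stands apart from the rest; this grouping was made after the overlaps were seen. Within the 5 to 99 bases, 16 overlaps were of 97 to 99 bases and 10 of exactly 99. The assembly also holds isoforms that reach beyond the annotated models, and those of the paired gene are part of its level below. With isoforms of any opposite-strand gene counted, 122 of the 264 transcripts overlapped an isoform by 100 bases or more, 60 of them among the 159. Such an isoform need not belong to the paired gene. By exon number, these were 12 of the 75 transcripts of 1 exon and 110 of the 189 of 2 or more exons. Of the 75 with 1 exon, 62 shared at most 4 bases with any such isoform. The members are called opposite-strand transcripts here.

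**Figure D1:**
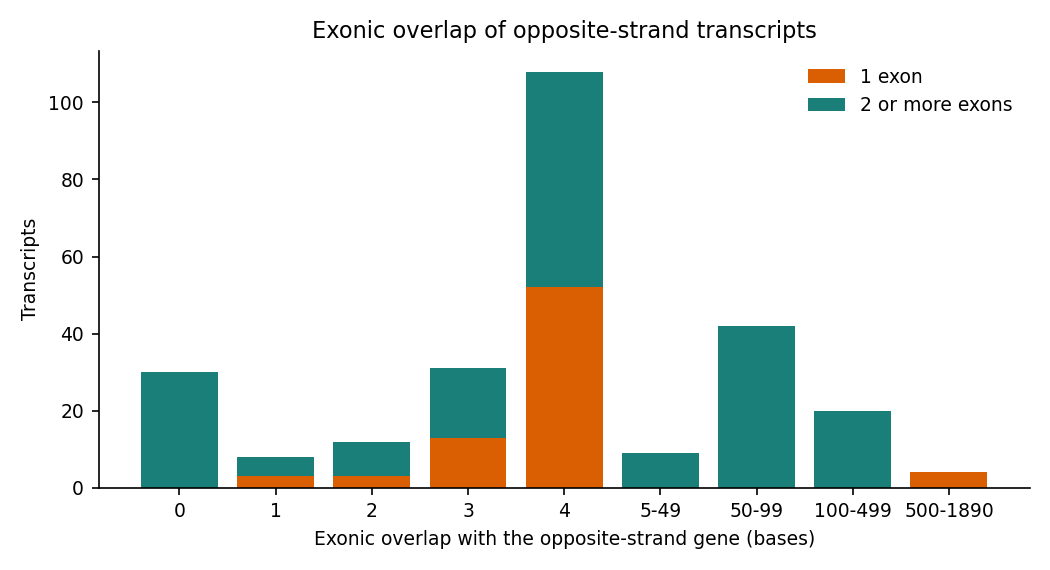
Number of opposite-strand transcripts (vertical axis) by exonic bases shared with the annotated model of the paired gene (horizontal axis, bins of unequal width), split into transcripts of 1 exon and of 2 or more exons. The tallest bar is the 108 transcripts that share 4 bases, and the 30 transcripts at 0 all have 2 or more exons.

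The short overlaps lay mainly at the ends of genes. Of the 159 transcripts with 1 to 4 shared bases, 100 lay past the annotated 3′ end of the gene and 36 past its 5′ end, each touching that end, and 23 lay within the span of the gene. Read along its own strand, a transcript past the 3′ end runs towards the gene and ends on its tail, and one past the 5′ end begins at the gene and runs away from it. For the 71 of them with 1 exon these numbers were 47, 24 and 0. The transcripts of 2 or more exons that overlapped by 5 bases or more (71) lay past the 3′ end in 23 cases, past the 5′ end in 22 and within the span of the gene in 26. Only 4 of 234 paired transcripts covered at least 50% of the exonic length of the annotated gene, and these 4, each of 1 exon, covered all of it. They were ANSTF.4175.1, ANSTF.1577.1, ANSTF.3572.1 and ANSTF.1449.1. Among the 154 pairs in which both had introns, none shared one (0).

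The 30 transcripts without a shared exonic base had large spans, between 3512 and 82256 bases. In 23 of them the gene named by the authors' comparison lay wholly inside one of the introns. The median of their longest introns was 13147 bases, against 506 bases over all opposite-strand transcripts of 2 or more exons and 285 bases over spliced reference genes. In 15 of the 30, exons overlapped an assembled isoform of an opposite-strand gene that extends the annotated model. Their levels were low, with a median of 3.03 FPKM in the highest tissue, and 24 of 30 reached 1 FPKM in any tissue. ANSTF.6934.1 (scaffold_00055, 85725 to 93483, plus strand, 4 exons), picked for the map of exons after its values were seen, holds ASTEI07483 in an intron of 4877 bases. It had 8.12 FPKM in the fat body, 7.84 in the ovary, 21.3 in the midgut and 11.6 in the Malpighian tubules, and ASTEI07483 had 6.29, 0.0418, 122 and 2.31 FPKM in the same order. Both were highest in the midgut, though with TPM (every tissue rescaled to the same sum) the transcript was highest in the Malpighian tubules, and the transcript was present at 7.84 FPKM in the ovary where the gene was near 0.

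**Figure D2:**
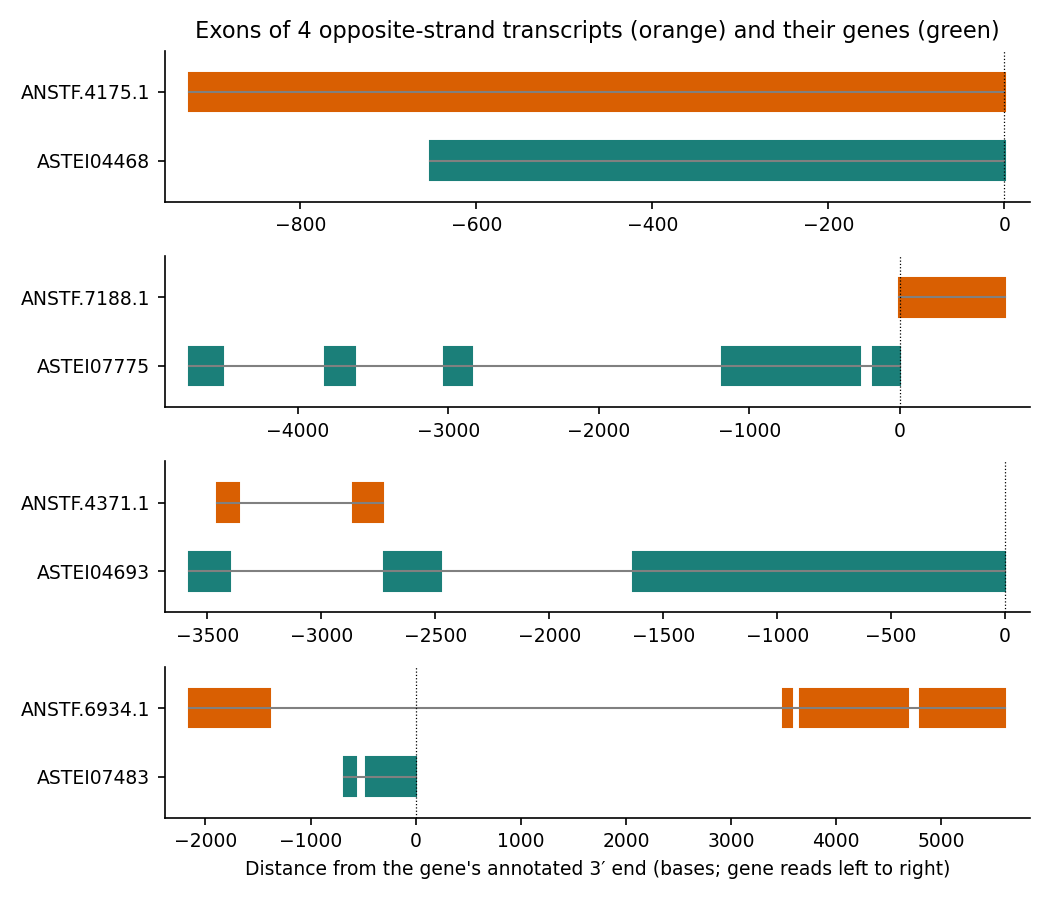
Exons (boxes) and introns (lines) of 4 opposite-strand transcripts above their genes, against the distance in bases from the 3′ end of the gene, with the gene read from left to right. ANSTF.4175.1 covers its gene fully, ANSTF.7188.1 shares 4 bases at the 3′ end, ANSTF.4371.1 shares 58 bases inside the gene, and ANSTF.6934.1 has the gene inside its intron and shares 0 bases.

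Opposite-strand transcripts had fewer exons than the genes they touched. Over the 234 pairs, with a gene counted once for each of its transcripts, the median was 2 exons for the transcripts and 4 for the genes. The transcript had fewer exons than its gene in 184 pairs, as many in 27 and more in 23, and in 10 pairs the gene had 1 exon. Over the class, 75 transcripts had 1 exon, 122 had 2, 29 had 3, 16 had 4 and 22 had between 5 and 10. The median exonic length was 459 bases for 1 exon and 851 bases for 2 or more exons, against 1185 bases over all reference genes. The 264 transcripts came from 235 assembled genes, and 196 were alone in theirs. The 234 paired transcripts touched 200 genes, so that members that share a gene are not independent.

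The transcripts with the most exons differed in level from their partners, though ANSTF.6109.1 and its gene shared their highest tissue. ANSTF.5968.1 (scaffold_00039, 1472263 to 1495954, plus strand) had 10 exons, shared no base with its named gene ASTEI06392, and stood at 4.90 FPKM in the fat body, 0.304 in the ovary, 0.388 in the midgut and 5.54 in the Malpighian tubules. ASTEI06392 had 50.7, 0.270, 0.202 and 0.917 FPKM in that order. Both were higher in the fat body and the Malpighian tubules than in the other tissues. The gene was far highest in the fat body, while the transcript had similar levels in the fat body and the tubules. ANSTF.10082.3 (scaffold_00176, 20032 to 25866, minus strand, 9 exons) shared 99 bases with ASTEI10861 and was highest in the ovary at 47.02 FPKM (bounds 39.2 to 54.9), where the gene had its lowest level, 13.3 FPKM (6.90 to 19.6), with bounds that overlap those of its other tissues and with midgut as its lowest tissue under TPM. Its other levels were 9.37 FPKM in the fat body, 10.4 in the midgut and 19.0 in the Malpighian tubules, and the gene lay between 13.7 and 24.8 FPKM there, a range under 2-fold that kept the pair out of the count of patterns below. ANSTF.6109.1 (scaffold_00041, 1523169 to 1527356, plus strand, 9 exons) touched the annotated 3′ end of ASTEI06570 by 4 bases and an assembled opposite-strand isoform by 1893. It varied from 1.75 FPKM in the Malpighian tubules and 3.60 in the fat body to 14.4 in the midgut and 22.9 in the ovary. Its gene lay between 8.74 and 10.2 FPKM in all 4 tissues and was also highest in the ovary. The near-equal levels of the gene hold in FPKM only, since TPM raises the ovary and lowers the midgut. With TPM both were again highest in the ovary.

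Most of the opposite-strand transcripts were detected, those of 1 exon at higher levels and in more tissues. At 1 FPKM or more in any tissue, 248 of 264 (93.9%) were detected, against 72.3% of reference genes. The transcripts were assembled from these same libraries, so the shares are not of like sets and are given as a description. All 75 transcripts of 1 exon reached 1 FPKM, as did 173 of 189 with 2 or more exons. The median of the highest level was 46.3 FPKM for 1 exon and 7.69 FPKM for 2 or more exons. In all 4 tissues at 1 FPKM or more were 70 of 75 (93.3%) of those with 1 exon and 74 of 189 (39.2%) of those with 2 or more. By tissue, 185 transcripts were detected in the fat body, 188 in the ovary, 185 in the midgut and 196 in the Malpighian tubules. Lengths near 200 bases, the shortest present, make FPKM imprecise, which the authors' bounds show for the short transcripts below.

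The transcript was above its gene in a minority of pairs. In the tissue where the transcript was highest, its FPKM exceeded that of its gene in 77 of 219 pairs in which both reached 1 FPKM in any tissue (35.2%). Among neighbouring reference genes on opposite strands, taken in both orders, the first gene exceeded the second in 62.6% of cases, and the difference between these shares was not tested. The measures are unlike, since the first share sets 1 transcript against a sum over the transcripts of a gene and the second sets sum against sum. With the gene level from transcripts that match the annotated model only, the transcript was above in 79 of 184 pairs (42.9%). The median ratio of transcript to gene was 0.894 for 1 exon (quartiles 0.680 and 1.11) and 0.562 for 2 or more exons (0.159 and 1.39). The ratio lay between 0.5 and 2 in 60 of 74 pairs with 1 exon (81.1%) and in 49 of 145 pairs with 2 or more exons (33.8%). In 7 pairs the transcript was at least 10 times its gene and in 35 pairs at most 0.1 times. A ratio within a library does not depend on scaling between tissues.

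**Figure D3:**
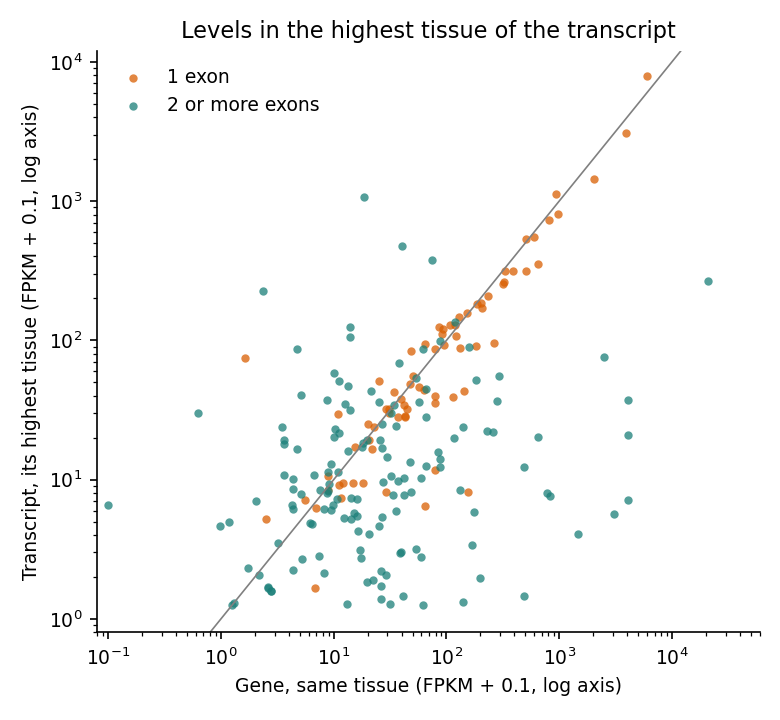
FPKM + 0.1 of each opposite-strand transcript in its highest tissue (vertical log axis) against its gene in the same tissue (horizontal log axis), for the 219 pairs with both at 1 FPKM or more in any tissue; the grey line marks equal levels. Transcripts of 1 exon lie along the line, with a median ratio of 0.894, and those of 2 or more exons scatter widely around it.

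The 3 transcripts of highest FPKM had 1 exon and a partner of similar level. ANSTF.4175.1 (scaffold_00023, 1051638 to 1052564, minus strand) covers all 654 bases of ASTEI04468 (1051911 to 1052564, plus strand, 1 exon). It had 137 FPKM in the fat body, 23.7 in the ovary, 88.3 in the midgut and 7855 in the Malpighian tubules, where the bounds were 7586 and 8125. ASTEI04468 had 157, 16.6, 89.3 and 6028 FPKM in the same order. Both were far higher in the Malpighian tubules than in any other tissue, the transcript 57.4 times the next one, and the ratio of transcript to gene stayed between 0.871 and 1.43. Fragments of the shared 654 bases fit both models if strand was not kept, so how this locus divides between its strands cannot be told apart here.

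ANSTF.5043.1 (scaffold_00030, 1853052 to 1856904, minus strand, 3853 bases) shares 4 bases with the 3′ end of ASTEI05408 (1847776 to 1853055, plus strand, 3 exons). It had 280 FPKM in the fat body, 208 in the ovary, 894 in the midgut and 3067 in the Malpighian tubules (3003 to 3130). Its gene had 345, 545, 1258 and 3921 FPKM. Both were highest in the Malpighian tubules and next in the midgut, and the ratio was 0.813, 0.383, 0.711 and 0.782. The next annotated gene beyond the transcript, ASTEI05409, lies 1255 bases away on the strand opposite to it and stayed between 8.01 and 36.5 FPKM.

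ANSTF.7188.1 (scaffold_00058, 530006 to 530708, minus strand) shares 4 bases with the 3′ end of ASTEI07775 (525290 to 530009, plus strand, 5 exons). It had 1449 FPKM in the fat body (1395 to 1503), 9.05 in the ovary, 10.6 in the midgut and 33.4 in the Malpighian tubules. ASTEI07775 had 2019, 12.0, 13.4 and 43.7 FPKM. Both stood far higher in the fat body than elsewhere. The ratio was 0.718, 0.755, 0.792 and 0.765, a range of 0.14 on the log2 scale. The next gene beyond the transcript, ASTEI07776, is on the same strand as the transcript, 1385 bases away. It had 25.7, 16.8, 42.8 and 22.8 FPKM, highest in the midgut in FPKM but not with TPM.

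Constant ratios of this kind were common for transcripts of 1 exon. The range over the 4 tissues of log2(transcript FPKM / gene FPKM) was taken for pairs in which both had at least 5 FPKM in every tissue. This measure was added after the data were seen. Its median was 0.35 in 57 pairs with 1 exon (quartiles 0.21 and 0.60) and 1.49 in 25 pairs with 2 or more exons (0.99 and 2.93). The range stayed under 1, that is under 2-fold, in 49 of the 57 pairs and in 7 of the 25. For 30 transcripts just past a gene end (class code p, all of 1 exon) with their gene, the median was 1.002 (0.51 and 1.77). For 2836 ordered pairs of neighbouring genes on opposite strands it was 2.03 (1.26 and 2.96). These differences are descriptions and were not tested.

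**Figure D4:**
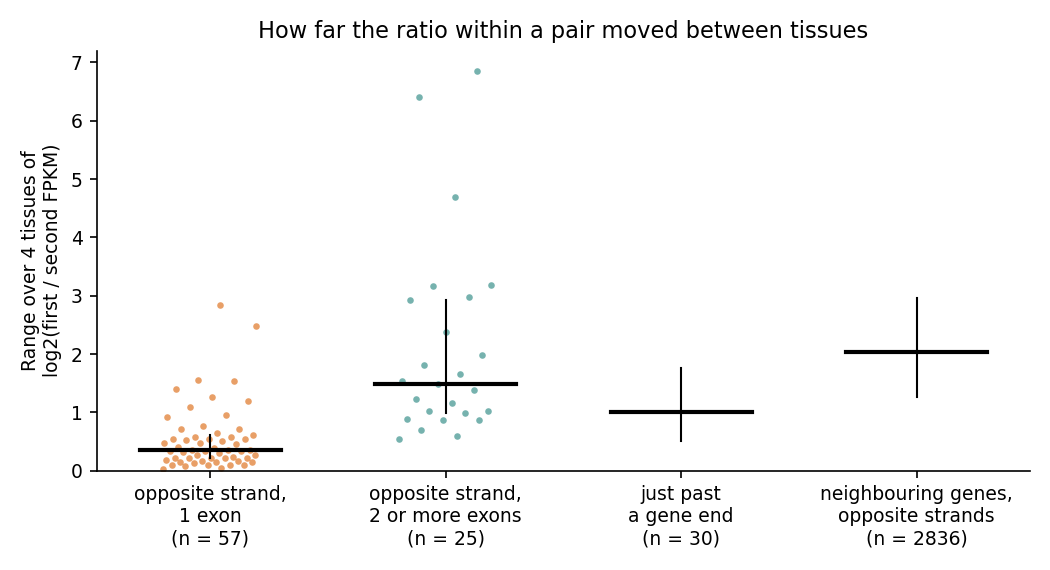
Range over the 4 tissues of the log2 ratio of FPKM within a pair (vertical axis) for 4 sets of pairs (horizontal axis); dots are pairs, horizontal bars medians and vertical lines quartiles. The median is 0.35 for opposite-strand transcripts of 1 exon with their genes and 1.49 for those of 2 or more exons, beside 1.002 for transcripts past a gene end and 2.03 for neighbouring genes.

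The next gene beyond the transcript gave another comparison. Of the 75 transcripts of 1 exon, 70 could be assigned a next annotated gene on the side away from the partner, at a median of 537 bases. In 67 of these 70 that gene was on the strand of the transcript and in 3 on the opposite strand. For transcripts of 2 or more exons the numbers were 29 and 43. Over all neighbouring reference genes, 54.4% of pairs lay on opposite strands. In 39 transcripts of 1 exon with 5 FPKM or more in every tissue for the transcript and both genes, the log2 ratio to the partner had a median range of 0.40, and the ratio to the next gene 1.93. In 37 of the 39 the next gene was on the strand of the transcript, and there the medians were 0.39 and 1.89. The range was smaller to the partner in 36 of the 39, and in 34 of the 37. The exceptions were ANSTF.4050.1, ANSTF.6478.1 and ANSTF.9185.1.

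Pairs of the same tissue pattern outnumbered opposite ones. A pair was compared when both members reached 1 FPKM in any tissue and varied at least 2-fold over the tissues in FPKM + 1, which 147 pairs did. The highest tissue was the same in 95 (64.6%), and in 16 (10.9%) the highest tissue of the transcript was the lowest of the gene. The 36 remaining pairs were neither. Among neighbouring reference genes on opposite strands, 36.4% had the same highest tissue and 22.9% were opposite. With 1 exon, 42 of 46 pairs were the same and 0 were opposite. The 4 others were ANSTF.942.1, ANSTF.4345.1, ANSTF.4689.1 and ANSTF.6395.1. With 2 or more exons, 53 of 101 (52.5%) were the same and 16 (15.8%) opposite. For transcripts past a gene end, all of 1 exon, 98 of 162 pairs (60.5%) were the same and 12 (7.41%) opposite. These shares were near those of all 147 pairs but not of the like set, pairs with 1 exon, with 91.3% the same and 0 opposite. With TPM, which raises ovary most, 191 pairs were compared, 126 were the same and 15 opposite. With 1 exon these numbers were 58, 50 and 2, and the 2 were ANSTF.4050.1 and ANSTF.1577.1. Of the 95 same pairs, 31 were highest in the midgut, 27 in the ovary, 22 in the fat body and 15 in the Malpighian tubules. Of the 8923 detected reference genes, 2448 were highest in the midgut, 3320 in the ovary, 1858 in the fat body and 1297 in the Malpighian tubules. The difference was not tested.

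The 3 same pairs of widest range included ANSTF.4175.1 and ANSTF.7188.1, given above, and a very unequal pair. ANSTF.2803.1 (scaffold_00012, 1261290 to 1263686, plus strand, 2 exons, 200 bases) lies within ASTEI02990 (1260982 to 1269489, minus strand, 6 exons) and shares 181 bases with it. It had 1.48 FPKM in the fat body, was listed at 0 in the ovary, and had 267 FPKM in the midgut and 8.89 in the Malpighian tubules. ASTEI02990 had 134, 60.2, 20791 and 470 FPKM. The midgut held the highest estimate of both, with the transcript at 0.0129 times its gene. The authors' bounds for the transcript in the midgut ran from 0 to 1394 FPKM, so its level there is not distinguishable from 0.

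The 16 opposite pairs, all with 2 or more exons, touched 13 genes. The transcript was highest in the ovary in 10 of them, in the midgut in 4 and in the Malpighian tubules in 2. The gene was highest in the midgut in 9 and in the ovary in 5. Of all 248 detected opposite-strand transcripts, 86 were highest in the ovary, 77 in the midgut, 47 in the fat body and 38 in the Malpighian tubules. The counts over detected reference genes are given above. In 13 of the 16 the bounds, summed over transcripts for the gene, were apart for both members between the 2 highest tissues. With TPM, 7 of the 16 were still called opposite. Of the 95 same pairs, 79 were still called the same with TPM.

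Of the 3 widest opposite pairs, 2 lay at ASTEI04693 (scaffold_00025, 305062 to 308641, minus strand, 3 exons). ANSTF.4370.1 (307127 to 307541, plus strand, 2 exons, 321 bases) shares 4 bases with it and had 0.403 FPKM in the fat body, 0.109 in the ovary, 19.2 in the midgut (10.4 to 28.1) and 0.146 in the Malpighian tubules. ANSTF.4371.1 (307791 to 308522, plus strand, 2 exons, 234 bases) shares 58 bases, was listed at 0 in the fat body, and had 0.231 FPKM in the ovary, 18.0 in the midgut (6.64 to 29.5) and 0.933 in the Malpighian tubules. ASTEI04693 had 6.83 FPKM in the fat body (4.94 to 8.84), 74.5 in the ovary (65.0 to 84.3), 3.50 in the midgut (1.34 to 5.82) and 9.05 in the Malpighian tubules. Both transcripts were midgut transcripts within the span of a gene highest in the ovary. Midgut was the lowest tissue of the gene, though its bounds there overlap those in the fat body. They rest on few fragments, an estimated 63 and 28 in the midgut. A second isoform, ANSTF.4370.2, gave the third opposite pair at this gene. All 3 kept the opposite call with TPM.

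The remaining opposite pair of the 3, the widest of them by the product of the fold ranges of its members, depended on scaling. ANSTF.1251.2 (scaffold_00005, 1235290 to 1238107, minus strand, 5 exons) shares 149 bases with the 3′ part of ASTEI01321 (1226278 to 1236556, plus strand, 9 exons) and 1010 with an assembled opposite-strand isoform. It had 6.35 FPKM in the fat body, 0.349 in the ovary (0.0543 to 0.645), 7.77 in the midgut (5.44 to 10.1) and 4.23 in the Malpighian tubules. ASTEI01321 had 50.3, 359 (330 to 389), 5.04 (0.736 to 10.4) and 24.8 FPKM. The gene was far highest in the ovary, where this transcript had its lowest level. ANSTF.1251.1, the other isoform of the same assembled gene, was more abundant in every tissue, at 34.4 FPKM in the fat body, 24.9 in the ovary, 40.2 in the midgut and 26.6 in the Malpighian tubules. It varied 1.59-fold in FPKM + 1 and so was not among the pairs compared. The bounds of the transcript in the midgut and in the fat body (3.71 to 9.001) overlap, and with TPM the pair was no longer called opposite.

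**Figure D5:**
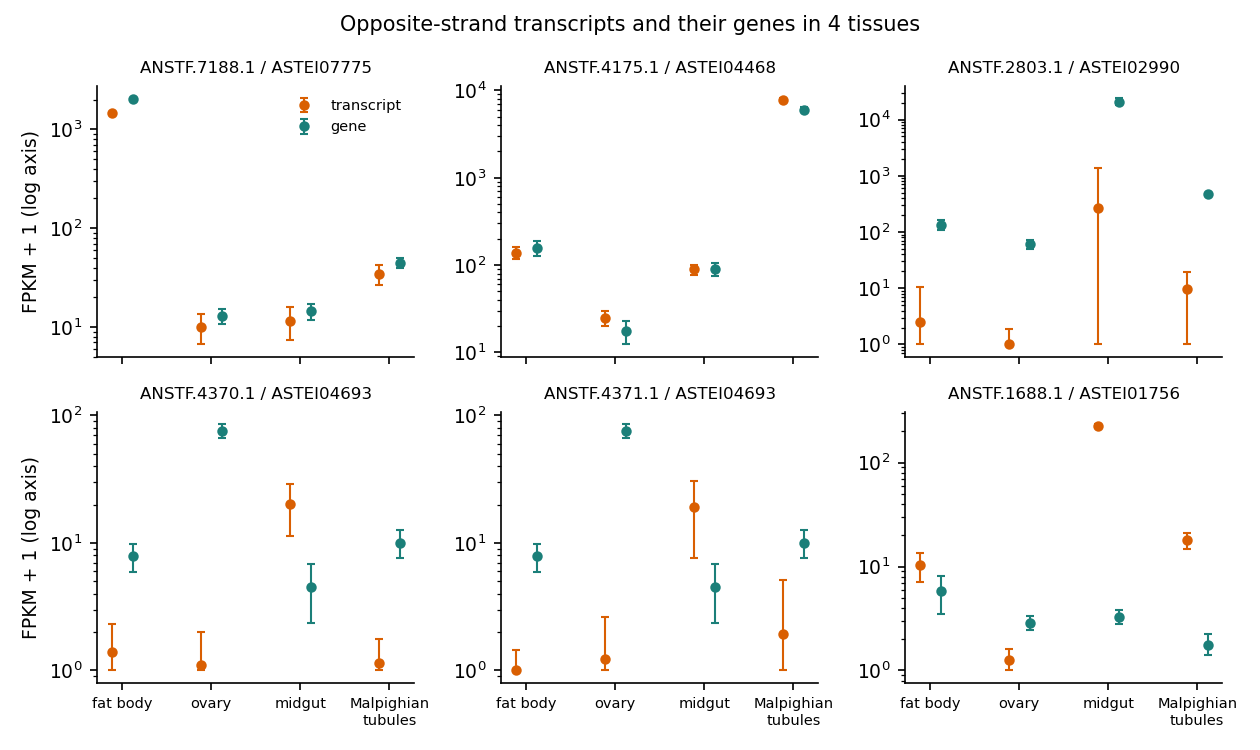
FPKM + 1 (vertical log axes) in 4 tissues for 6 opposite-strand transcripts and, beside each, the gene it touches. Points are the single libraries and bars the authors' bounds, summed over transcripts for the gene. ANSTF.7188.1 and ANSTF.4175.1 peak in the tissue of their gene, ANSTF.2803.1 has its highest estimate in the midgut with a lower bound of 0, ANSTF.4370.1 and ANSTF.4371.1 in the midgut where ASTEI04693 is lowest, and ANSTF.1688.1 in the midgut at 226 FPKM where ASTEI01756 has 2.27 FPKM.

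Some opposite-strand transcripts stood high in 1 tissue alone. Enrichment was called where FPKM + 1 in the highest tissue came to 5 or more times the value of the tissue next to it, with at least 1 FPKM. This gave 28 of the 264, with 11 in the midgut, 8 in the fat body, 5 in the Malpighian tubules and 4 in the ovary. The ovary count depends on the scaling and the pseudocount: it was 20 with TPM and 17 with a pseudocount of 0.1 FPKM, which put the ovary first in place of last. Of the detected reference genes 11.2% were enriched in any tissue, namely 2.76% in the midgut, 4.79% in the fat body, 1.63% in the Malpighian tubules and 2.04% in the ovary. Of the 28 transcripts, 25 had 2 or more exons. In FPKM all 8 fat body transcripts and all 5 tubule transcripts touched a gene that was also highest in that tissue. With TPM this did not hold for at least ANSTF.9470.1 and ANSTF.202.3 (both below). Of these genes, 6 of the 8 and 2 of the 5 were enriched there. In midgut 5 of 10 paired transcripts, and in the ovary 2 of 4, touched a gene highest in the same tissue.

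In fat body, ANSTF.7188.1 (above) was followed by ANSTF.9470.1 (scaffold_00120, 53733 to 54733, plus strand, 3 exons), which lies within the span of ASTEI10240 (53075 to 56516, minus strand, 4 exons) and shares 3 bases with its annotated model, while an assembled opposite-strand isoform covers all 858 of its exonic bases. It had 376 FPKM in the fat body (359 to 393), 0.341 in the ovary, 3.03 in the midgut and 3.41 in the Malpighian tubules. ASTEI10240 had 74.8, 13.6, 72.4 and 54.2 FPKM. The transcript was 5.03 times its gene in the fat body and at most 0.0630 times in the other tissues. The gene itself was about as high in the midgut as in the fat body, where the bounds overlap (61.1 to 83.7 and 68.3 to 81.3), and with TPM it was highest in the Malpighian tubules.

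In midgut, ANSTF.2803.1 (above) was followed by ANSTF.1688.1 (scaffold_00006, 1950106 to 1951930, minus strand, 2 exons, 1760 bases), which lies within ASTEI01756 (1949949 to 1960792, plus strand, 6 exons) and shares 4 bases. It had 9.31 FPKM in the fat body, 0.254 in the ovary, 226 in the midgut (218 to 233) and 16.9 in the Malpighian tubules. ASTEI01756 had 4.84, 1.85, 2.27 and 0.763 FPKM and was highest in the fat body. The transcript stood 99.3 times above its gene in the midgut, and in the ovary at 0.138 times.

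In ovary the enriched transcripts were lower. ANSTF.10835.1 (scaffold_02076, 698 to 2114, plus strand, 3 exons, 348 bases) shares 36 bases with ASTEI11420 and had 9.82 FPKM in the fat body, 55.1 in the ovary (24.0 to 86.3), 1.05 in the midgut and 4.64 in the Malpighian tubules. ASTEI11420 had 47.1, 293, 6.90 and 23.7 FPKM, with a ratio between 0.153 and 0.208. Transcript and gene kept the same order of tissues. ANSTF.1559.2 (scaffold_00005, 4197244 to 4199691, minus strand, 2 exons) touches the annotated 3′ end of ASTEI01621 by 4 bases, overlaps an assembled opposite-strand isoform by 2257, and had 0.995 FPKM in the fat body, 12.1 in the ovary (10.4 to 13.9), 0.258 in the midgut and 1.16 in the Malpighian tubules. ASTEI01621 had 87.3 FPKM in the ovary and 139, 115 and 117 FPKM in the other tissues, so that ovary was its lowest tissue, while with TPM midgut was. In Malpighian tubules, ANSTF.4175.1 (above) was followed by ANSTF.202.3 (scaffold_00001, 3630788 to 3632750, minus strand, 2 exons), which shares 99 bases with the annotated ASTEI00228 and 710 with an assembled opposite-strand isoform. It had 0.124, 0.0748 and 0.511 FPKM in the fat body, ovary and midgut and 9.25 in the Malpighian tubules (6.34 to 12.2), and the gene lay between 4.45 and 8.97 FPKM in all tissues. The bounds of the gene in the Malpighian tubules, its highest tissue in FPKM (5.03 to 13.1), overlap those in the ovary (4.90 to 9.21). With TPM the gene was highest in the ovary.

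The extremes of the ratio, among tissues where both members had at least 5 FPKM, were reached by spliced transcripts. ANSTF.8062.1 (scaffold_00074, 227783 to 228721, minus strand, 2 exons) touches the 3′ end of ASTEI08730 (226166 to 227786, plus strand) by 4 bases. It had 91.4 FPKM in the fat body, 35.6 in the ovary, 1078 in the midgut (1050 to 1107) and 528 in the Malpighian tubules, and its gene 30.4, 15.7, 18.4 and 22.7 FPKM. The ratio was 3.004, 2.27, 58.5 and 23.3. In FPKM + 1 the transcript varied 29.5-fold over the tissues and the gene 1.88-fold. The next gene beyond the transcript, ASTEI08731, lies 732 bases away on the strand opposite to it. It had 354, 77.3, 596 and 2527 FPKM in the same order. The log2 ratio had a range of 3.11 to this next gene and 4.69 to the partner. Among transcripts of 2 or more exons with such values, the range was smaller to the partner in 6 of 9. With TPM both were highest in the Malpighian tubules, and the ratios within a tissue were as given. ANSTF.11277.1 (scaffold_06249, 1 to 382, plus strand, 3 exons, 259 bases) shares 175 bases with the 3′ end of ASTEI11598 (141 to 806, minus strand). It had 111, 473, 17.7 and 43.4 FPKM, its gene 10.2, 40.6, 4.61 and 5.37 FPKM, and the ratio was 10.9, 11.7, 3.85 and 8.08 in the fat body, ovary, midgut and Malpighian tubules. Both members were highest in the ovary.

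The lowest ratios were of low transcripts beside abundant genes. ANSTF.10470.3 (scaffold_00565, 3351 to 4265, plus strand, 2 exons) shares 1 base with the 5′ end of ASTEI12229 (1367 to 3351, minus strand, 1 exon) and had 7.06 FPKM in the fat body (1.67 to 12.4), 1.76 in the ovary, 3.57 in the midgut and 2.28 in the Malpighian tubules. Its gene had 4080, 328, 3064 and 638 FPKM, and the ratio in the fat body was 0.00173. ANSTF.7115.1 (scaffold_00057, 876969 to 883864, minus strand, 2 exons) shares 63 bases with the 5′ end of ASTEI07702 (883802 to 885172, plus strand). It had 0.165 FPKM in the fat body, was listed at 0 in the ovary, and had 5.52 in the midgut (1.41 to 9.63) and 0.319 in the Malpighian tubules. Its gene had 51.6, 12.4, 3067 and 77.1 FPKM. Both were highest in the midgut, with a ratio of 0.0018 there.

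In 5 pairs the transcript reached 1 FPKM and the gene did not reach it in any tissue. These were ANSTF.1449.1, ANSTF.2401.1, ANSTF.3149.1, ANSTF.7292.1 and ANSTF.9872.1, named after their values were seen. ANSTF.3149.1 (scaffold_00014, 1678572 to 1679912, plus strand, 2 exons) shares 61 bases with ASTEI03390 and had 27.5 FPKM in the fat body, 23.2 in the ovary, 61.9 in the midgut and 43.5 in the Malpighian tubules, while the gene was highest at 0.0630 FPKM. ANSTF.1449.1 (scaffold_00005, 3134210 to 3136395, plus strand, 1 exon) covers all 1254 bases of ASTEI01503 and had 7.68, 7.41, 3.51 and 3.54 FPKM, and the gene had at most 0.00132 FPKM. In 10 pairs the gene reached 1 FPKM and the transcript did not. The other 2 transcripts that cover a whole gene differed from each other. ANSTF.1577.1 had 42.3, 67.3, 108 and 32.0 FPKM, and its gene ASTEI01642 had 2.24, 0.000515, 123 and 3.98 FPKM. ANSTF.3572.1 had 4.26, 2.48, 8.12 and 6.70 FPKM, and its gene ASTEI03839 had 33.2, 9.69, 154 and 81.2 FPKM, all in the order of the other lists. Both transcripts were highest in the midgut, as were their genes, but with TPM ANSTF.1577.1 was highest in the ovary and ANSTF.3572.1 and ASTEI03839 in the Malpighian tubules. Among these 2 pairs, only ANSTF.1577.1 was well above its gene in the 3 other tissues. As for ANSTF.4175.1, fragments of the covered gene fit both models if strand was not kept. How the loci of ANSTF.1449.1, ANSTF.1577.1 and ANSTF.3572.1 divide between their strands therefore cannot be told apart here.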

How the data were processed

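RNA of the 4 tissues, 1 library each, was sequenced and each library run on 2 lanes, per the labels. CASAVA 1.8, HISAT2, StringTie 1.2.1 and Cuffdiff are named in the submitters' processing notes; the genome build is not given in the sources used here. Deposited FPKM, with lower and upper bounds, cover 25785 transcripts. The deposited values named counts are not whole numbers and were treated as a signal scaled by the authors; depth was estimated by dividing them by the mean of the 2 smallest values shared by at least 50 transcripts alone in their assembled gene.

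Gene levels are sums of FPKM over same-strand transcripts of class =, j, o and e. Gene bounds are sums of the authors' lower and upper bounds over the same transcripts. Exonic overlap was counted with the annotated model of each gene. With 1 library per tissue no test was run and no count model fitted. Scripts (Python 3.11.15, numpy 2.4.6, pandas 2.3.3) were tested on simulated data. The named transcripts were the 3 of highest FPKM, the 2 highest enriched per tissue, the 3 with most exons, the 3 widest same and opposite pairs, and the 2 highest and 2 lowest ratios; others are said to be picked afterwards. Members and lists were chosen with earlier results of these data known. TPM moved log2 levels by 0.12 in the fat body, 1.17 in the ovary, -0.32 in the midgut and 0.79 in the Malpighian tubules. The authors' 3 lists of annotated, alternative and intergenic transcripts hold 0 of the 264 and were not used.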

Additional observations from a re-analysis of the deposited data

How the results depend on the processing

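Over 60 alternative settings, 40 gave values within 1.5 times those reported and 20 did not. Pairs with the transcript above its gene (77) were 50 with 2 or more exons only, 8 at an overlap of at least 100 bases and 25 at 5 or more bases, which have fewer pairs by construction; their shares were 34.5%, 42.1% and 37.9%. Pairs with the same highest tissue (95 of 147, 64.6%) were 44 of 57 (77.2%) at a 4-fold range, 53 of 101 (52.5%) with 2 or more exons only and 26 of 48 (54.2%) at an overlap of 5 or more bases. Opposite pairs (16 of 147, 10.9%) were 27 of 219 (12.3%) without the range filter, 6 of 57 (10.5%) at a 4-fold range and 5 of 48 (10.4%) at an overlap of 5 or more bases. Enriched transcripts at a ratio of 2 were 17 in the fat body, 36 in the ovary, 24 in the midgut and 14 in the Malpighian tubules; at a ratio of 10 they were 0 in the ovary, 7 in the midgut and 1 in the Malpighian tubules. In the ovary they were 20 with TPM and 17 with a pseudocount of 0.1 FPKM, against 4, so the place of ovary depends on scaling. At 20 FPKM the median range of the log2 ratio was 0.22 in 28 pairs with 1 exon and 0.87 in 3 pairs with 2 or more exons. The settings of 1 to 4 and of 5 or more bases and those on this range were added after seeing the data. No paired analysis was possible because each tissue has 1 library and no result comes from a test. Leaving out a replicate was not possible for the same reason.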
